A study of Mus musculus with 4 samples.

Results

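The 44 genes described here are markers of dividing cells, chosen by name and matched to the Ensembl gene identifiers of the count tables through the GENCODE mouse annotation. They were 44 of the 50488 genes listed in all 4 tables. By role they comprised 14 S-phase genes, 20 mitotic genes, 5 G1/S cyclins and kinases, 3 transcription factors, the thymidine kinase gene Tk1 and Mki67, which encodes the Ki-67 protein. All 44 had at least 10 counts over the libraries of each joint and were kept in both comparisons.

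The study deleted Cbfb, which encodes the shared β subunit of the Runx transcription factor complexes, in mouse cartilage after birth and sequenced poly-A RNA labelled as articular cartilage. There were 4 libraries, with 1 for each condition. The hip control came from Cbfβf/f mice with no Cre, labelled as untreated, although the methods describe TMX or corn oil injection for this genotype. The hip mutant library came from tamoxifen (TMX) injected Cbfβf/f;Col2α1-CreERT mice, whose recombinase is driven by the promoter of the type II collagen gene of chondrocytes. The knee control came from oil-injected Cbfβf/f;Aggrecan-CreERT mice, and the knee mutant library from TMX-injected mice of that genotype, whose recombinase is driven from the aggrecan gene. All 4 libraries thus carried floxed Cbfb alleles, and the knee control, but not the hip control, carried the Cre of its mutant library. By the figure legends the mice were males, 6 weeks old for the hip and 12 weeks old for the knee, although other passages give other ages for the hip and for the injections. Whether animals were pooled is not given in the sources used here. TMX and the labelled deletion cannot be told apart in either pair, nor can the Cre transgene in the hip pair.

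The tables held between 34264456 and 38473120 counts on genes per library, so that 3 counts, the limit for calling a gene undetected, corresponded to between 0.0780 and 0.0876 CPM, that is, counts scaled to a library of 1000000. Cbfb itself had 2548 counts in the hip control and 2946 in the hip TMX library, a log2 ratio of 0.41, and 3796 and 4572 counts in the knee libraries, a log2 ratio of -0.071. Counts summed over a gene do not show a deleted exon. The labelled loss of Cbfb was not visible in them, for a reason that was not tested, and the mutant libraries are called the TMX libraries. The tissue label was checked against markers. The 16 chondrocyte markers, none of them at 0, summed to 413 and 362 CPM in the hip control and TMX libraries and to 6606 and 4269 CPM in the knee libraries, whereas 15 skeletal muscle markers took 148244 and 153502 CPM of the hip libraries. Haemoglobin-making red cell markers took 100441 and 50054 CPM of the knee libraries. Markers of tissues other than cartilage were thus abundant in each library.

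A dividing cell copies its DNA in S phase and separates the copies in mitosis, and the genes for each step are transcribed in waves. E2F factors act on the S-phase genes, and complexes containing MuvB proteins with B-Myb or FoxM1 act on the mitotic genes. Articular chondrocytes of adult animals divide rarely, while the precursors of blood cells in bone marrow divide continually.

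Every one of the 44 genes was more abundant in each knee library than in each hip library. The same comparison was not made over all genes, so how unusual this is cannot be told. Their CPM values summed to 260 in the hip control and 252 in the hip TMX library, against 5680 in the knee control and 5188 in the knee TMX library. The median gene was 26.1 times higher in the knee control than in the hip control, and 29.8 times higher in the knee TMX than in the hip TMX library. Between the control libraries the quotient was smallest for the cyclin D1 gene Ccnd1 (2.80) and largest for Mki67 (109). The hip and knee libraries also differed in Cre line, in the age of the mice, in what served as control and in the list of genes counted, and these cannot be told apart from the joint. Levels of several marker lists differed in the same direction, blood and other. The 9 granulocyte precursor markers, headed by the myeloperoxidase gene Mpo, summed to 39.4 and 29.9 CPM in the hip and to 2870 and 3385 CPM in the knee, and the 8 erythroid progenitor markers, headed by the transferrin receptor gene Tfrc, to 63.4 and 56.0 CPM in the hip and 1709 and 1363 CPM in the knee. The 8 haematopoietic stem and progenitor markers summed to 102 and 77.9 CPM in the hip and 222 and 282 CPM in the knee. The 8 osteoclast markers summed to 66.96 and 55.7 CPM in the hip and 3440 and 1912 CPM in the knee. The 10 osteoblast and osteocyte markers summed to 916 and 218 CPM in the hip and 12041 and 7054 CPM in the knee. Chondrocyte markers were also higher in the knee, while skeletal muscle and satellite cell markers were lower there. The part of these cells in the level of the cell cycle genes was not tested.

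**Figure D1:**
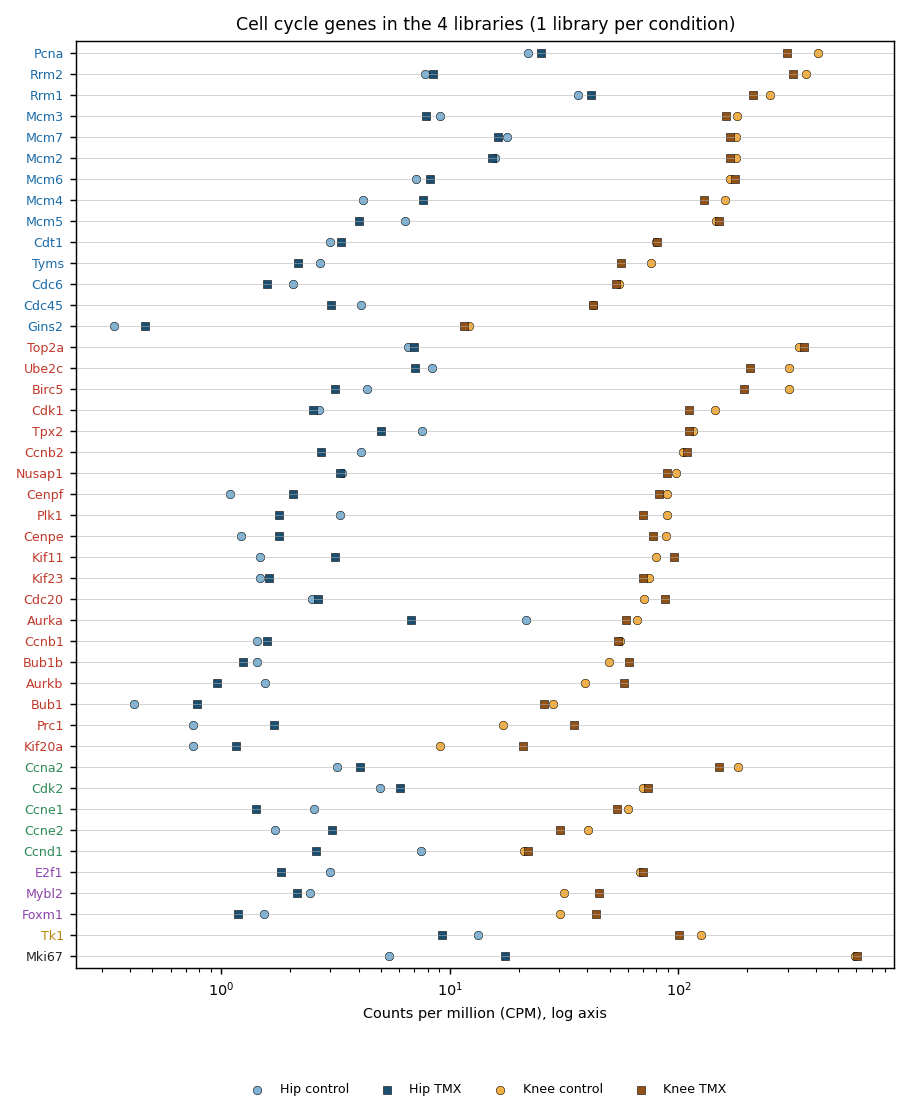
Level of each of the 44 cell cycle genes in the 4 libraries, in CPM on a log axis, grouped by role, with 1 point per gene and library. For all 44 genes both knee points lie above both hip points, a comparison not made over all genes.

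On a scale of CPM per kilobase of transcript, which allows levels of different genes to be compared, the order differed between joints. Pcna, the sliding clamp of the DNA polymerases, stood first in both hip libraries, at 14.4 CPM per kilobase in the control and 16.5 in the TMX library. In the knee the mitotic ubiquitin-conjugating enzyme gene Ube2c stood first, at 315 in the control and 213 in the TMX library, and Birc5, which encodes survivin of the chromosomal passenger complex, had 310 and 196. The lowest member was Gins2, of the GINS part of the replicative helicase, in both hip libraries and the knee TMX library, and the mitotic kinesin gene Kif20a in the knee control. The subunits Mcm2 to Mcm7 form 1 hexameric helicase, yet per kilobase the most abundant of them exceeded the least abundant 7.44 and 6.28 times in the hip control and TMX libraries and 1.94 and 2.38 times in the knee libraries.

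Promoters of many cell cycle genes are known for sequence elements through which the waves of transcription act, and 6 of the members' promoters are printed as examples. Mki67, in neither the S-phase nor the mitotic class, and the mitotic genes Prc1 and Kif11 rose in the hip TMX library. Cdc20 is a mitotic gene with a small ratio in both pairs. Of the S-phase genes Mcm5 had the lowest ratio of the hip, and Mcm6 the highest of the knee. Each stretch is 170 bases that end just before the transcription start, from RefSeq on build GRCm38.p6, read 5′ to 3′ along the gene's strand. Capitals mark the CHR element (TTTGAA, or TTCAAA on the other strand), the CCAAT box (CCAAT or ATTGG) and an E2F-type motif (TTTNNCGC or GCGNNAAA), and runs of capitals longer than these are motifs that overlap or adjoin. Mki67 lies at chr7:135716380-135716549 on the minus strand, Prc1 at chr7:80294306-80294475 on the plus strand, Kif11 at chr19:37376212-37376381 on the plus strand, Cdc20 at chr4:118437344-118437513 on the minus strand, Mcm5 at chr8:75109339-75109508 on the plus strand and Mcm6 at chr1:128359706-128359875 on the minus strand.
Mki67: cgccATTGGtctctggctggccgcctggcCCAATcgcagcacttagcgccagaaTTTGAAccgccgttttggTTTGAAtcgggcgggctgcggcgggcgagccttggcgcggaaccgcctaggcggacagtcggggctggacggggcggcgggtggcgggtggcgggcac
Prc1: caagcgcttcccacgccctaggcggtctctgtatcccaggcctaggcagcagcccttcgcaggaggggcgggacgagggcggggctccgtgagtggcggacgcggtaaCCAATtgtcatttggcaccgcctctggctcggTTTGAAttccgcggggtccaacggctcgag
Kif11: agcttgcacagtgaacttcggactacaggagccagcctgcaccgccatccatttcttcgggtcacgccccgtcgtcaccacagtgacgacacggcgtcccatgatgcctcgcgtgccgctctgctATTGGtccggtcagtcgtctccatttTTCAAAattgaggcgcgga
Cdc20: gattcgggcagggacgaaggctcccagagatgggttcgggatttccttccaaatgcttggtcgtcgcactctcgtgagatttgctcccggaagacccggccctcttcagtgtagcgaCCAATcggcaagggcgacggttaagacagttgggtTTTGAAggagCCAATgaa
Mcm5: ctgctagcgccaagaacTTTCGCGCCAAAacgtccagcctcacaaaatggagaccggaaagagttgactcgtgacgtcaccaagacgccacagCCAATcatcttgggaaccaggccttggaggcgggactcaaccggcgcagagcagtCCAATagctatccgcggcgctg
Mcm6: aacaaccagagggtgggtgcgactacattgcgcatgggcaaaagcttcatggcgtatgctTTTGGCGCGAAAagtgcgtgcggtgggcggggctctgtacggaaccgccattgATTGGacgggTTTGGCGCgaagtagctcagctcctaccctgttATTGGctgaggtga
The printed stretches of Mki67, Prc1, Kif11 and Cdc20 each hold a CHR and a CCAAT box, and those of Mcm5 and Mcm6 hold E2F-type motifs and CCAAT boxes.

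The same letters were searched in windows of 300 bases, 250 before and 50 after the start, for the 35 members with such a window. The CHR stood in 13 of 18 mitotic windows (72.2%) and 2 of 13 S-phase windows (15.4%), against 17.9% of all 32851 windows. The E2F-type motif stood in 7 of 13 S-phase windows (53.8%) and in 1 of 18 mitotic windows (5.56%), against 5.17% of all windows. CCAAT boxes stood in 88.9% of the mitotic and 76.9% of the S-phase windows, against 37.4% of all. Ratios were set beside the letters only for the CHR in mitotic genes. The 12 mitotic genes with a CHR had log2 ratios from -1.62 to 1.21 in the hip (median 0.046) and from -0.75 to 0.84 in the knee (median -0.20). The 5 without one had ratios from -0.42 to 0.93 in the hip (median 0.20) and from -0.84 to -0.21 in the knee (median -0.32). The ranges overlapped in both joints. The windows of Birc5, Nusap1, Tk1, E2f1, Mybl2 and Ccne1 held none of these letters. A match is a string of letters and does not show binding.

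Within each joint the TMX library was compared with its control, to ask whether transcripts of dividing cells differed after the labelled deletion of Cbfb and whether S-phase and mitotic genes differed alike. Ratios are log2 ratios of counts scaled by the trimmed mean of M-values (TMM), with 0.5 added to each count for the ratio, and the brackets give 95% Clopper-Pearson intervals. These intervals cover counting error only, since with 1 library per condition there was no replicate error and no test. A gene is said to have risen or fallen where its log2 ratio was at least 1 in size and its interval excluded 0, and to be higher or lower beyond its interval where only the interval excluded 0. In whole-tissue RNA, fewer dividing cells and less of a transcript per cell cannot be told apart.

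In the hip the cell cycle genes scattered to both sides of no difference. The median log2 ratio of the 44 genes was 0.0069, against 0.014 over all genes, and the range ran from -1.62 to 1.73. With the length and GC trend subtracted the median was -0.15 for the members and 0 for all genes. Beyond their intervals 12 genes (27.3%) were higher, against 37.3% of all 19856 genes tested, 12 (27.3%) were lower, against 33.7% of all, and 20 were within them. With library size alone 8 (18.2%, against 36.0% of all genes) were higher and 13 (29.5%, against 35.2%) lower, and DESeq2 size factors gave the same counts, against 35.1% and 36.0%. Mki67, Prc1 and Kif11 rose, against 20.2% of all genes, but none of them passed the limit once a trend on transcript length and GC content was removed, and Aurka and Ccnd1 fell, against 16.3% of all genes. The counts behind these ratios were low, from 29 to 2838 over the pair.

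In the knee most of them lay slightly lower in the TMX library. The median log2 ratio was -0.25, against 0.019 for all genes, and the range ran from -0.84 to 1.03. Of the 44 genes 35 (79.5%) were lower beyond their intervals, against 29.7% of all 21131 genes tested, 8 (18.2%) were higher, against 31.9% of all, and Ccnd1 was within its interval. No member fell, against 6.81% of all genes, and only Kif20a rose, against 9.00% of all genes, a call that was lost with the trend subtracted (0.85). The counts over the pair ran from 857 to 43399, so that the intervals were narrow and small ratios passed them. The split of 35 lower and 8 higher rested on the scaling. With library size alone it was 22 lower (50%, against 20.1% of all genes) and 11 higher (25%, against 43.0% of all genes), and the median over all genes moved to 0.20. Relative to the median of all genes the members' median was -0.27 under both scalings. A scaling shifts all genes alike, so this difference could not change and says nothing on the choice of scaling.

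The median ratios of S-phase and mitotic genes were close in each joint, while their summed counts differed. In the hip the median log2 ratio was 0.084 for the S-phase genes and 0.073 for the mitotic genes, a difference of 0.011. In the knee the medians were -0.27 and -0.26, a difference of -0.011. Summed over the class, the S-phase genes had 139 CPM in the hip control and 145 in the hip TMX library (log2 ratio 0.11 [0.053, 0.16]), while the mitotic genes had 75.8 and 58.0 CPM (log2 ratio -0.34 [-0.43, -0.26]). The hip mitotic sum and median thus differed in sign, and Aurka alone held 826 of the 2917 mitotic counts of the hip control. In the knee the sums were 2297 and 2025 CPM for the S-phase genes (log2 ratio -0.36 [-0.38, -0.35]) and 2164 and 1968 CPM for the mitotic genes (log2 ratio -0.32 [-0.33, -0.30]). The intervals of the summed counts of the classes did not overlap in either joint, but in the hip most of the gap was that of Aurka. In the knee control Pcna (knee log2 ratio -0.63) held 13992 of the 78693 S-phase counts, and the knee sum without it was not computed. Without Aurka, a sum chosen after the data were seen, the mitotic log2 ratio was -0.042 [-0.13, 0.050] in the hip, with an interval that ends just below that of the S-phase genes, and -0.32 [-0.33, -0.30] in the knee.

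**Figure D2:**
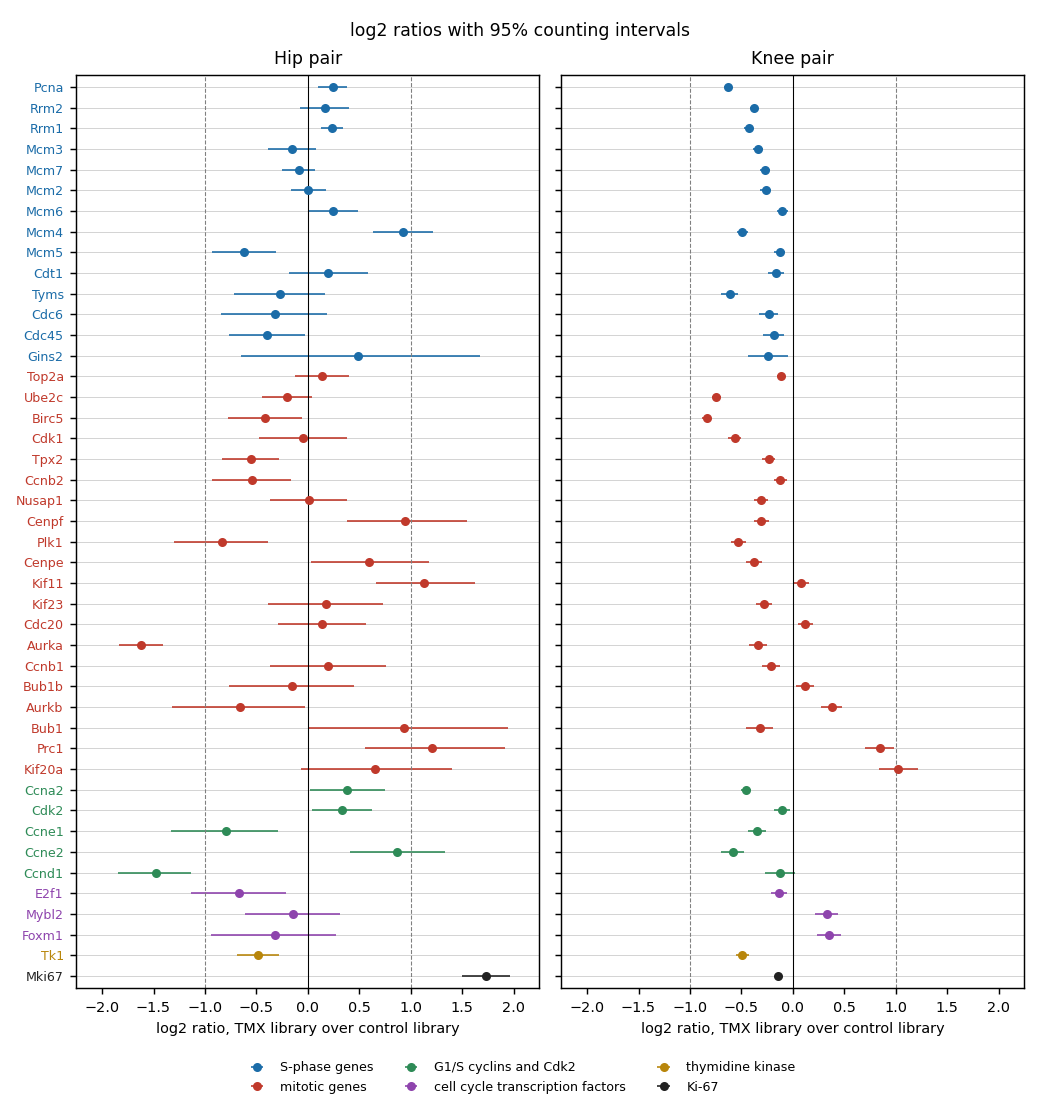
Log2 ratio of the TMX over the control library for each of the 44 genes in the hip and in the knee, grouped by role, with bars for the 95% counting interval. The hip points spread from -1.62 to 1.73 with wide intervals, while the knee points lie mostly between -0.84 and 0, with Kif20a at 1.03 and Prc1 at 0.84.

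Mki67, the standard marker of cells outside quiescence, had the highest ratio of the hip. It had 208 counts in the hip control and 601 in the hip TMX library, against 20265 and 23134 in the knee control and TMX libraries. In the hip it rose 3.31-fold (log2 ratio 1.73 [1.50, 1.96]). In the knee its log2 ratio was -0.15 [-0.18, -0.12], and 0.03 with library size alone. Top2a, which encodes DNA topoisomerase II alpha and like Mki67 peaks late in the cycle, did not share the hip difference. It had 252 and 242 counts in the hip (log2 ratio 0.14 [-0.12, 0.40]) and 11567 and 13528 in the knee (-0.11 [-0.15, -0.08]).

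Of the 14 S-phase genes none rose or fell in either joint. In the hip 3 were higher beyond their intervals (Mcm4, Pcna and Rrm1), 2 were lower (Mcm5 and Cdc45) and 9 were within them, shares of 21.4% and 14.3% against 37.3% and 33.7% of all genes. With the length and GC trend subtracted 3 others were higher (Cdt1, Mcm2 and Mcm6) and 5 were lower, against 34.5% and 32.8% of all genes, and the ratios were 0.0090 for Mcm4, -0.023 for Pcna and -0.48 for Rrm1. In the knee all 14 were lower beyond their intervals, from -0.63 (Pcna) to -0.10 (Mcm6). That compares with 29.7% of all genes. Under library size alone 8 of the 14 were lower, against 20.1% of all genes, and Mcm6 was higher.

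Pcna had 842 counts in the hip control and 867 in the hip TMX library, and 13992 and 11419 in the knee libraries. Its log2 ratio was 0.24 [0.10, 0.38] in the hip and -0.63 [-0.67, -0.60] in the knee. The ribonucleotide reductase genes, whose enzyme makes the deoxynucleotides for replication, were both lower beyond their intervals in the knee, and in the hip only Rrm1 was higher beyond its interval. Rrm1, the large subunit, had 1402 and 1436 counts in the hip (log2 ratio 0.23 [0.13, 0.34]) and 8571 and 8059 in the knee (-0.43 [-0.47, -0.38]). Rrm2, the small subunit made in S phase, had 300 and 293 counts in the hip (ratio 0.16 [-0.07, 0.40]) and 12396 and 12077 in the knee (-0.38 [-0.41, -0.34]). Per kilobase Rrm1 exceeded Rrm2 in the hip control (7.69 against 2.97 CPM per kilobase), and Rrm2 exceeded Rrm1 in the knee control (138 against 52.8).

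Subunits of the MCM helicase, which unwinds DNA ahead of the fork, had unequal ratios in the hip. Mcm4 had 160 and 265 counts in the hip control and TMX libraries (log2 ratio 0.92 [0.64, 1.22]) and 5491 and 4941 in the knee (-0.49 [-0.55, -0.44]). Mcm5 had 245 and 139 counts in the hip (ratio -0.62 [-0.93, -0.31]) and 4982 and 5762 in the knee (-0.13 [-0.18, -0.07]). Between these extremes of the hip, Mcm7 had 686 and 562 counts there (-0.09 [-0.25, 0.07]) and 6136 and 6444 in the knee (-0.27 [-0.32, -0.22]). Mcm6 had 274 and 283 counts in the hip (ratio 0.24 [-0.00, 0.49]) and 5762 and 6789 in the knee (-0.10 [-0.15, -0.05]). The hip intervals of Mcm4 and Mcm5 did not overlap, but with the trend subtracted the ratio of Mcm4 was 0.0090 and that of Mcm5 -0.71. The knee ratios of all 6 subunits lay between -0.49 and -0.10. The licensing and loading genes Cdc6, Cdt1, Cdc45 and Gins2 had log2 ratios from -0.39 to 0.49 in the hip and from -0.24 to -0.16 in the knee, and Tyms, the thymidylate synthase gene, -0.27 and -0.61.

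Tk1, which salvages thymidine for DNA synthesis, had nearly equal ratios in both joints. It had 510 and 318 counts in the hip (log2 ratio -0.48 [-0.69, -0.28]) and 4282 and 3855 in the knee (-0.49 [-0.55, -0.43]). It was lower beyond its interval in both, but with the length and GC trend subtracted its hip ratio was 0.11, within the interval, and its knee ratio -0.32.

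The G1/S cyclins, which with their kinases carry cells into S phase, split in the hip. Ccnd1, encoding the growth-factor-responsive cyclin D1, fell 2.79-fold there, from 289 to 90 counts (log2 ratio -1.48 [-1.84, -1.14]), and had 721 and 839 counts in the knee (-0.12 [-0.27, 0.02]). Its exons share 48.4% of their bases with LTO1 on the opposite strand, which had 433 and 259 counts in the hip (ratio -0.54).

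Both cyclin E genes, whose products activate Cdk2 at the start of S phase, were detected in all libraries. Ccne1 had 98 and 49 counts in the hip (log2 ratio -0.80 [-1.33, -0.29]) and 2067 and 2055 in the knee (-0.35 [-0.44, -0.26]). Ccne2 had 66 and 105 counts in the hip (ratio 0.86 [0.41, 1.33]) and 1372 and 1157 in the knee (-0.59 [-0.70, -0.47]). The cyclin E genes thus lay on opposite sides of 0 in the hip and on the same side in the knee. With the trend subtracted the hip ratios were -0.38 and 0.38, both within their intervals. Ints8, which overlaps 15.2% of the Ccne2 exon bases, had hip and knee ratios of 1.20 and 1.05. Ccna2, the S and G2 phase cyclin A2, had 123 and 140 counts in the hip (ratio 0.38 [0.02, 0.75]) and 6232 and 5750 in the knee (-0.46 [-0.51, -0.40]). Their partner kinase gene Cdk2 had 191 and 209 counts in the hip (ratio 0.33 [0.04, 0.62]) and 2398 and 2818 in the knee (-0.11 [-0.19, -0.03]).

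The mitotic genes covered a wider range of ratios than the S-phase genes in both joints. In the hip 5 of 20 were higher beyond their intervals (Prc1, Kif11, Cenpf, Bub1 and Cenpe), 6 were lower (Aurka, Plk1, Aurkb, Tpx2, Ccnb2 and Birc5) and 9 were within them, shares of 25% and 30% against 37.3% and 33.7% of all genes. With the trend subtracted 2 were higher and 4 lower, against 34.5% and 32.8% of all genes. In the knee 6 were higher (Kif20a, Prc1, Aurkb, Cdc20, Bub1b and Kif11) and 14 were lower, shares of 30% and 70% against 31.9% and 29.7% of all genes. Of the 44 members 2 (4.55%), Prc1 and Kif11, were higher beyond their intervals in both joints, against 18.1% of all genes, and 3 with library size alone. With the trend subtracted the ratios of Kif11 were 0.22 in the hip and 0.024 in the knee, both within the interval. The number of members higher in both joints was then again 2 (4.55%), against 14.1% of all genes.

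Aurka, the kinase that matures the spindle poles, had the lowest ratio of all 44 in the hip. It fell 3.07-fold, from 826 to 234 counts (log2 ratio -1.62 [-1.84, -1.41]), and had 2257 and 2261 counts in the knee (-0.34 [-0.42, -0.25]). Per kilobase Aurka ranked 5 among the members in the hip control and 29 in the knee control. Its exons overlap those of Fam210b, over 25.2% of their bases, and Cstf1 on the opposite strand. Fam210b had 548 and 373 counts in the hip (ratio -0.36) and Cstf1 had 1235 and 722 (-0.58). The source of reads in the shared bases was not tested.

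The highest mitotic ratio was that of Prc1 in the hip and of Kif20a in the knee, and the products of both act at the central spindle, the bundle of microtubules between separating chromosomes. Prc1, which bundles those microtubules, rose from 29 to 59 counts in the hip (log2 ratio 1.21 [0.56, 1.92], and 0.73 with the trend subtracted) and had 585 and 1329 counts in the knee (0.84 [0.70, 0.99]). Kif20a, a kinesin of the central spindle, had 29 and 40 counts in the hip (ratio 0.65 [-0.06, 1.40]) and rose from 311 to 802 counts in the knee (1.03 [0.84, 1.22]). Of the Kif20a exon bases 54.8% are shared with Cdc23 on the opposite strand, which had 555 and 1190 counts in the knee (0.76). Kif11, the kinesin that pushes spindle poles apart, rose from 57 to 109 counts in the hip (ratio 1.13 [0.66, 1.62], and 0.22 with the trend subtracted) and had 2723 and 3651 counts in the knee (0.08 [0.01, 0.16]). Kif23, another central spindle kinesin, had ratios of 0.17 [-0.39, 0.73] in the hip and -0.28 [-0.36, -0.20] in the knee.

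The mitotic genes with the most counts were those furthest below 0 in the knee, Top2a apart. Birc5 had 167 and 109 counts in the hip (log2 ratio -0.42 [-0.78, -0.06]) and 10393 and 7360 in the knee (-0.84 [-0.88, -0.79]). Ube2c had 321 and 243 counts in the hip (ratio -0.20 [-0.45, 0.04]) and 10442 and 7883 in the knee (-0.75 [-0.79, -0.70]). Cdk1, the kinase that drives entry into mitosis, had 103 and 87 counts in the hip (ratio -0.04 [-0.47, 0.38]) and 4956 and 4234 in the knee (-0.57 [-0.63, -0.51]). None of these passed the limit of 1 in size. Aurkb, whose kinase works in 1 complex with survivin, had a knee ratio of 0.38 [0.28, 0.47], on the other side of 0 from Birc5.

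The 3 transcription factor genes were also divided. Foxm1, which drives late cell cycle genes, had 59 and 41 counts in the hip (log2 ratio -0.32 [-0.94, 0.27]) and 1035 and 1671 in the knee (0.35 [0.24, 0.46]). Mybl2, which encodes B-Myb, had 94 and 74 counts in the hip (ratio -0.15 [-0.61, 0.31]) and 1083 and 1720 in the knee (0.33 [0.22, 0.44]). In the knee both were higher beyond their intervals while 14 of the 20 mitotic genes were lower. E2f1, an activator of S-phase genes, had 115 and 63 counts in the hip (ratio -0.67 [-1.14, -0.21]) and 2332 and 2684 in the knee (-0.14 [-0.22, -0.06]).

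Shared bases concern other members too. Gins2 shares 67.3% of its exon bases with Gse1, Rrm2 43.3% with Gm59512, Pcna 20.8% with AV099323, Ube2c 19.0% with Tnnc2, Ccna2 17.5% with Exosc9, Prc1 11.8% with Rccd1 and Cdc45 10.6% with Ufd1, all on the opposite strand. Exosc9 had ratios of 0.85 [0.59, 1.12] in the hip and -0.41 [-0.58, -0.25] in the knee, beside 0.38 [0.02, 0.75] and -0.46 [-0.51, -0.40] for Ccna2. Rccd1 had 0.54 and -0.35, so in the knee it lay on the other side of 0 from Prc1. The muscle gene Tnnc2 had 41 and 51 counts in the hip and Ube2c 321 and 243, and its part in them was not tested.

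The directions in the joints were set side by side. Ratios were above 0 in both joints for 4 genes, below 0 in both for 17, above 0 only in the hip for 19 and only in the knee for 4, which is 47.7% in the same direction, against 56.6% of all 17594 genes tested in both. With library size alone the shares were 54.5% of members and 57.8% of all genes, and with the length and GC trend subtracted they were 61.4% and 54.0%, so which was larger rested on the processing. The pairs share no library.

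Beyond the intervals of both joints, 10 genes (22.7%) were lower in both, among them Tk1, Aurka, Plk1 and Birc5, against 12.9% of all genes. Another 10 (22.7%) were higher in the hip and lower in the knee, among them Mki67, Pcna, Mcm4 and Rrm1, against 10.2% of all genes. With library size alone these counts were 6 and 5, against 9.65% and 5.56% of all genes, and Mki67 left the second group. With the trend subtracted they were 10 and 5, against 12.2% and 11.1% of all genes, and the membership differed. Of the genes named here Aurka alone then kept its place in the first group and Mki67 in the second, Tk1, Plk1 and Birc5 left the first, and Rrm1 joined it.

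Over all members transcript length and GC content moved with the hip ratios, though less so within the S-phase genes. GC content moved with the knee ratios of the S-phase genes. Across the 44 genes the Spearman correlation of the hip log2 ratio was 0.39 with transcript length and -0.62 with GC content, and it was 0.22 and -0.38 over all genes. For the 20 mitotic genes it was 0.50 and -0.73, and for the 14 S-phase genes -0.037 and -0.22. In the knee the members' values were 0.10 with length and 0.20 with GC content, against 0.25 and 0.028 over all genes. There the 14 S-phase genes alone had 0.72 with GC content and -0.064 with length. The genes share their libraries and are not independent. After a smooth trend on these properties, fitted over all genes, was subtracted, the hip log2 ratios of the 3 risen genes were 0.91 for Mki67, 0.73 for Prc1 and 0.22 for Kif11, all below the limit of 1, and that of Kif20a in the knee was 0.85. Their part in the ratios beyond this was not tested.

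**Figure D3:**
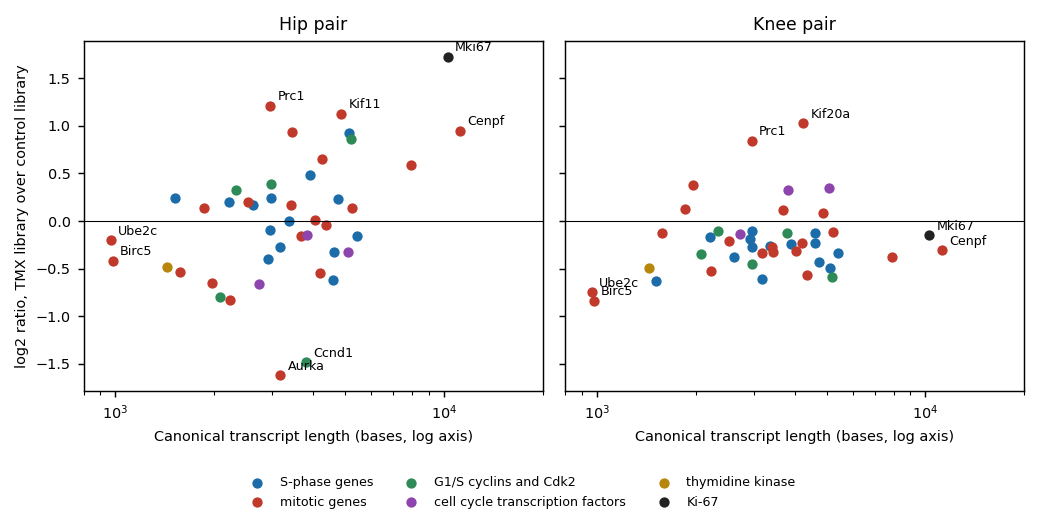
Log2 ratio of the TMX over the control library against the length of the canonical transcript (in bases, on a log axis) for the 44 genes in each joint, with 1 point per gene coloured by role. In the hip longer genes tend to lie higher (Spearman correlation 0.39), with Mki67 at 1.73, and in the knee the correlation is 0.10.

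Markers of blood-forming cells and of more mature blood cells were split in the knee, where 31.9% of all genes were higher and 29.7% lower beyond their intervals. The 8 erythroid progenitor markers had a summed log2 ratio of -0.51 in the knee with 7 of 8 lower beyond their intervals, the 9 neutrophil markers -0.51 with 8 of 9 lower, and the 10 B-cell precursor markers -0.95 with 9 of 10 lower. Summed, the 44 cell cycle genes had a log2 ratio of -0.31. The 8 haematopoietic stem and progenitor markers had a summed log2 ratio of 0.17 with 5 higher and 1 lower. The 9 granulocyte precursor markers had a summed log2 ratio of 0.057 with 5 higher and 2 lower, and the 16 chondrocyte markers, headed by Col2a1 and Prg4, summed to a log2 ratio of -0.81 with 5 higher and 11 lower. The 15 skeletal muscle markers had a summed log2 ratio of 0.90 with 15 of 15 higher, and the 8 osteoclast markers -1.03 with 7 of 8 lower. Haemoglobin-making, osteoblast and osteocyte, and hypertrophic chondrocyte markers had summed log2 ratios of -1.19, -0.95 and -1.52. None of these markers was at 0 counts in any library. In the hip the summed log2 ratios were -0.13 for the erythroid progenitor, -0.35 for the granulocyte precursor, -0.44 for the B-cell precursor (median -2.18, with 8 of 9 tested genes lower against 33.7% of all genes, and Ebf1 holding 712 of the 865 TMX counts) and 0.31 for the neutrophil markers, and -0.0022 for the 44 cell cycle genes. The hip sums were -0.35 for the stem and progenitor (median 0.023), -1.35 for the haemoglobin-making (median -0.53), -2.03 for the osteoblast and osteocyte (median -1.16) and -1.08 for the macrophage markers (median -1.14). For the stem and progenitor markers sum and median thus differed in sign. The part of these cells in the ratios was not tested.

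**Figure D4:**
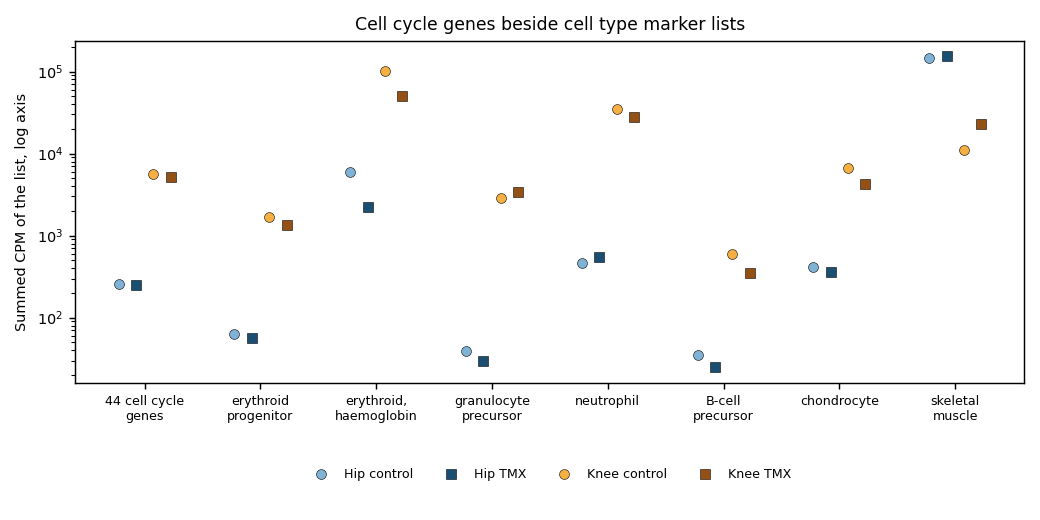
Summed CPM, on a log axis, of the 44 cell cycle genes and of 7 lists of cell type markers in the 4 libraries, with 1 point per library. The cell cycle genes, the blood lists and the chondrocyte markers lie higher in both knee libraries than in both hip libraries, and skeletal muscle markers lie higher in the hip.

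Further genes of the replication and mitosis machinery were counted in the same way. The shares over all genes were 37.3% higher and 33.7% lower beyond the interval in the hip, and 31.9% higher and 29.7% lower in the knee. Of 34 further replication genes, 10 (29.4%) were higher and 5 (14.7%) lower beyond their intervals in the hip (median 0.071), and 6 (17.6%) were higher and 21 (61.8%) lower in the knee (median -0.25). At the extremes, Rfc1, the large subunit of the clamp loader, rose from 576 to 1759 counts in the hip (log2 ratio 1.81), and Fen1, the flap endonuclease, rose from 37 to 135 counts in the knee (1.51). The lowest were Chaf1b, of a histone chaperone, in the hip (-0.63) and Rpa3, of the single-strand binding complex, in the knee (-0.96). The list of 43 further mitosis genes held 11 higher (25.6%) and 13 lower (30.2%) in the hip (median -0.11), and 5 higher (11.6%) and 31 lower (72.1%) in the knee (median -0.30). Knl1, of the kinetochore, rose from 15 to 47 counts in the hip (ratio 1.81, and 0.42 with the trend subtracted) and Cit, the citron kinase of cytokinesis, fell from 377 to 73 (-2.16). In the knee the extremes were Ncapg, of condensin (0.32), and Cks1b, a Cdk-binding subunit (-0.88).

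Of 14 genes that hold cells out of the cycle (CDK inhibitors, pocket proteins and quiescence genes), 9 were higher (64.3%, against 37.3% of all genes) and 1 was lower beyond the interval in the hip (median log2 ratio 0.59), and 6 were higher and 6 lower in the knee (median -0.012). Rb1, encoding the retinoblastoma protein that restrains E2F, rose from 204 to 818 counts in the hip (ratio 2.20 [1.98, 2.43], and 1.29 with the trend subtracted) and had 1239 and 1797 in the knee (0.20 [0.09, 0.30]). Its relative Rbl2 rose in both, from 955 to 2013 counts in the hip (ratio 1.27) and from 466 to 1204 in the knee (1.03), although its ratios were 0.80 and 0.86 after removal of the length and GC trend. Cdkn1a, the p53-responsive inhibitor p21, rose in the hip from 1551 to 3362 counts (1.31 [1.23, 1.40]) and fell in the knee from 2145 to 1353 (-1.0 [-1.10, -0.91]). That knee call lay at the limit and was lost with DESeq2 size factors (-0.99), library size alone (-0.82) and the trend removed (-0.97).

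The inhibitor genes Cdkn1b and Cdkn1c, encoding p27 and p57, did not pass the limit of 1 in either joint. Cdkn1b had log2 ratios of 0.65 and 0.02, and Cdkn1c 0.03 and -0.14. The p15 gene Cdkn2b fell in the hip from 125 to 36 counts (-1.58) and the neighbouring Cdkn2a fell in the knee from 80 to 21 (-2.24). Among 8 further genes of G1 cyclins, kinases and their regulators the extremes were Cdk7 (0.78) and Cdc25a (-1.06) in the hip and Ccnd3 (0.11) and Cdk4 (-0.53) in the knee. Among 9 further E2F and DP factors, Tfdp2, an E2F dimerization partner, rose from 937 to 5428 counts in the hip (ratio 2.73 [2.63, 2.83], and 1.97 with the trend subtracted) and had 3552 and 5006 in the knee (0.16), and E2f8 was lowest in the hip (-0.77). In the knee E2f6 was highest (0.90) and E2f5 lowest (-0.73).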

How the data were processed

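Poly-A RNA libraries were prepared with a NEBNext Ultra kit from TRIzol-extracted RNA. The extraction notes name osteoblasts, while the tissue labels name articular cartilage. The authors aligned the reads with STAR and deposited raw counts per gene (the submitters' notes list STAR 2.0, FastQC 0.11.3 and build mm10, and the study's methods name another STAR version and GRCm39). The hip counts come from HTSeq, whose summary lines (25.8% and 24.6% of the hip totals) were left out. The program for the knee counts and the strand setting are not given in the sources used here, so reads of overlapping genes on opposite strands may be shared: 23 members overlap another gene's exons, 11 of them over 10% of their exon bases, and 4 members have named pseudogenes.

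Counts were scaled within each joint by TMM (edgeR 4.0.16), filtered at 10 counts over the pair and compared as log2 ratios with 95% Clopper-Pearson intervals, on all genes. The calculation was tested on simulated counts. No count model was fitted, since each condition had 1 library. Length, GC content and exons came from GENCODE (GRCm39), promoters from RefSeq (GRCm38.p6). The members and gene lists were chosen with earlier results of these data known. Genes given in full were Mki67, Tk1, the G1/S cyclins, Cdk2, the transcription factors, the 4 S-phase and 4 mitotic genes with most counts and, per joint, those with the highest and lowest ratio among genes with at least 50 counts, and likewise the extremes of the further lists with the Cdkn1 genes. Bub1, Cenpe, Kif23 and others outside this rule were named after their values were seen, where counts called for it. Alternatives were library size alone, DESeq2 1.42.0 size factors, TMM without erythroid and muscle genes, 1 in place of 0.5 added, other count filters, a length and GC trend removed, Tk1, Ccna2 and Mki67 placed in the classes, and a limit of 0.5.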

Additional observations from a re-analysis of the deposited data

Results flagged for a closer look

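With TMM scaling Mki67 lay on opposite sides of 0 in the joints: its log2 ratio of the TMX over the control library was 1.73 in the hip and -0.15 in the knee. Each counting interval excludes 0, but the knee ratio did not pass the limit of 1 in size. With 1 library per condition the difference between the joints was not tested. The hip value was 0.91 after removal of the length and GC trend, below the limit of 1, and the knee value was 0.033 with library size alone.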

How the results depend on the processing

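Over the 44 genes no log2 ratio changed sign while past the limit under any alternative. With the length and GC trend removed, 0 genes rose in the hip and 0 in the knee, against 3 and 1, while 13.6% and 9.29% of all genes rose, and the knee medians were -0.40 for the S-phase and -0.33 for the mitotic genes. In the hip 7 members (15.9%, against 34.5% of all genes) were then higher and 10 (22.7%, against 32.8%) lower beyond their intervals. With library size alone the knee median was -0.085 for the S-phase genes and -0.074 for the mitotic genes and 2 genes rose, Prc1 (1.03) joining Kif20a. With a limit of 0.5 in place of 1, 8 rose (18.2%, against 29.96% of all genes) and 9 fell (20.5%, against 25.4%) in the hip, and 2 rose (4.55%, against 18.5%) and 7 fell (15.9%, against 15.9%) in the knee. DESeq2 size factors, TMM without erythroid and muscle genes, the other pseudocount and both count filters changed no member's call in either joint, though with DESeq2 size factors or library size alone 8 members were higher and 13 lower beyond their intervals in the hip, against 12 and 12. With Tk1 counted as S-phase and Ccna2 and Mki67 as mitotic, the S-phase minus mitotic median was -0.13 in the hip, against 0.011, and -0.013 in the knee, against -0.011. The cause of these differences was not tested. No paired analysis was possible because each condition had 1 library, and for the same reason no library could be left out. The low counts of the members in the hip limit the precision there, where 20 of 44 lay within their counting intervals.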
